A study of Arabidopsis thaliana and Cucumis sativus and Glycine max with 60 samples.

Results

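Gene expression was compared between the elongation zone (EZ) and the meristematic zone (MZ) of the tomato primary root. The members are the 3 EZ libraries and the 3 MZ libraries of tomato, 6 of the 60 samples of a series on root zones in 7 vascular plants. They were read from the 34673 rows of the deposited table whose IDs start with Solyc, the prefix of tomato loci. The EZ libraries came from the part of the root tip behind the meristem, and the MZ libraries from the meristematic part of the same kind of root. Both came from cultivar Heinz 1706 seedlings, 6 days after plating on MS medium set with agarose, in constant light at 21 °C, with no treatment and no transgene in the labels. The 3 libraries of the differentiation zone (DZ) of the same cultivar and age entered the fit and are given for reference. The series' design text calls the 3 libraries of a zone biological replicates, but the labels do not say how many roots went into each.

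In a growing root, cells are made by division in the meristem, then stop dividing and lengthen many times over in the elongation zone, before they mature in the differentiation zone. Elongation is known for wall loosening, for growth of the central vacuole and for water uptake, while the meristem is known for mitosis, DNA replication and the making of ribosomes. The comparison asks which genes differ in level between the zone where cells lengthen and the zone where they divide. The tomato IDs are not paired with gene names in the files or the reference used here, so no gene below carries a name or a role, the zone labels were not checked against marker genes, and the 4 IDs printed are the 2 largest rises and the 2 largest falls. Genes are described instead by the size of their change, by their level and by their place in the genome.

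The 6 libraries listed 21627 to 22509 of the tomato rows above 0 RPKM (reads per kilobase of gene, scaled to sequencing depth). The files hold no read counts, but the steps between low values gave depths of 0.933 to 1.17 relative to MZ replicate 1 over all 9 libraries. Across the tested genes, the log2 values of EZ libraries correlated with each other at 0.94 to 0.971, those of MZ libraries at 0.977 to 0.982, and EZ with MZ libraries at 0.669 to 0.842. Genes are not independent replicates. The EZ libraries were thus the more varied set. On a line on which the mean MZ profile lies at 0 and the mean DZ profile at 1, EZ replicates 1, 2 and 3 lay at 0.465, 0.559 and 0.707, and the MZ libraries between -0.0216 and 0.0167.

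In the EZ 3952 genes rose and 4503 fell relative to the MZ, of the 19892 genes that reached 1 RPKM in 3 or more of the 9 libraries (limma, Benjamini-Hochberg adjusted p under 0.05 and at least 2-fold). The background rates were 19.9% of tested genes higher, 22.6% lower and 42.5% in either direction. Which count was larger turned with each library scaled to the same summed RPKM, where 4450 rose and 3844 fell. The genes that rose had a median log2 change of 1.74, and the genes that fell one of -1.48, against -0.02 over all tested genes. In zones cut from whole roots, a change in the share of cells of a type and a change in RNA per cell cannot be told apart. Of the 11437 genes not called, 5331 passed the adjusted p but changed by less than 2-fold, and 224 changed by at least 2-fold without passing. Every EZ library lay above every MZ library in 36.2% of tested genes and below every MZ library in 39%. Among the called genes the 2 zones overlapped in 34 of those that rose and in 67 of those that fell.

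**Figure D1:**
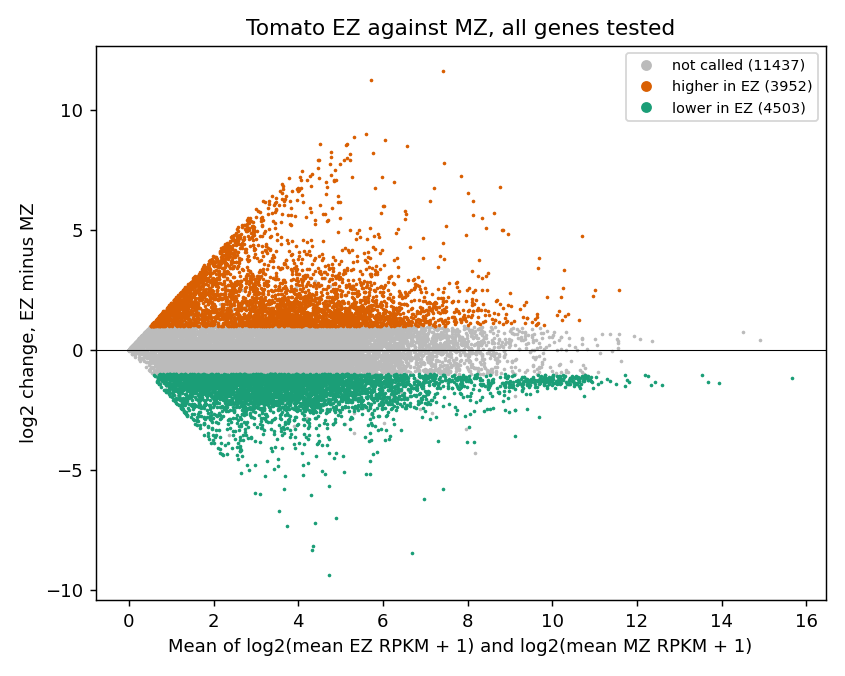
Log2 change of each tested tomato gene, EZ minus MZ (vertical axis), against its level (horizontal axis, the mean of the log2 levels of the 2 zones), with 3952 genes called higher in orange, 4503 called lower in green and 11437 not called in grey. Changes upward reach further than changes downward.

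The largest rise on the log2(RPKM + 1) scale was that of Solyc12g098770.1, an ID numbered to chromosome 12. It stood at 5143, 5530 and 11345 RPKM in EZ replicates 1, 2 and 3, against 0, 0 and 9.02 RPKM in MZ replicates 1, 2 and 3. Every EZ library was far above every MZ library, and the gene was listed at 0 in 2 of the 3 MZ libraries. The log2 change was 11.64 ± 0.79 (SE; limma adjusted p = 6.77e-06). Its size depends on the added 1 RPKM, and was 9.93 with 5 RPKM added and 13.90 with 0.1 RPKM added. Without MZ replicate 3 the gene is at 0 throughout the MZ, so no fold is given for that setting. It ranked 8 among all tomato rows by mean EZ level and 14983 by mean MZ level. In the DZ it was at 10111, 9317 and 7414 RPKM, and DZ against EZ did not pass the test (log2 change 0.37 ± 0.79, limma adjusted p = 0.724).

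The next largest rise on that scale was that of Solyc10g081400.1, numbered to chromosome 10, which came ahead of Solyc12g098770.1 with 0.1 RPKM added in place of 1. It was at 1537, 2255 and 4460 RPKM in EZ replicates 1, 2 and 3 and was listed at 0 in all 3 MZ libraries. No fold is given against a zone listed at 0, and the call rests on limma's adjusted p = 2.88e-07. The fit shares its estimate of spread over all zones, and the MZ at 0 adds none, so this p may be too small. With the 6 MZ and EZ libraries alone the adjusted p in limma was 8.01e-06, and 0.000222 with a replicate block added. Its DZ levels of 707, 1023 and 892 RPKM were below those of every EZ library. From EZ to DZ the gene fell by 1.53 ± 0.33 on the log2 scale (limma adjusted p = 0.00421). That test shares the EZ libraries and the estimate of spread with the first.

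Solyc07g020970.1, numbered to chromosome 7, had the largest fall on that scale. It was listed at 0 in all 3 EZ libraries and was at 810, 873 and 417 RPKM in MZ replicates 1, 2 and 3 (limma adjusted p = 2.88e-07). It was also listed at 0 in all 3 DZ libraries, so these data show it in the MZ libraries alone. Whether such a 0 is a failed estimate is not known from RPKM values. Zones at 0 add nothing to the spread that the fit shares over all zones, so the p given may be too small. With the 6 MZ and EZ libraries alone the adjusted p in limma was 7.73e-06, and 0.000222 with a replicate block added.

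Solyc01g106640.2, numbered to chromosome 1, had the next largest fall, and a larger one than Solyc07g020970.1 with 5 RPKM added in place of 1. It was at 8.20, 4.16 and 1.08 RPKM in EZ replicates 1, 2 and 3, against 2405, 2716 and 664 RPKM in MZ replicates 1, 2 and 3. The zones were far apart, although MZ replicate 3 was well below the other MZ libraries. The log2 change was -8.46 ± 0.61 (SE; limma adjusted p = 9.63e-06), and -9.11 without MZ replicate 3. In the DZ the gene was at 2.22, 1.40 and 1.89 RPKM. By mean level it ranked 13505 in the EZ and 100 in the MZ.

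**Figure D2:**
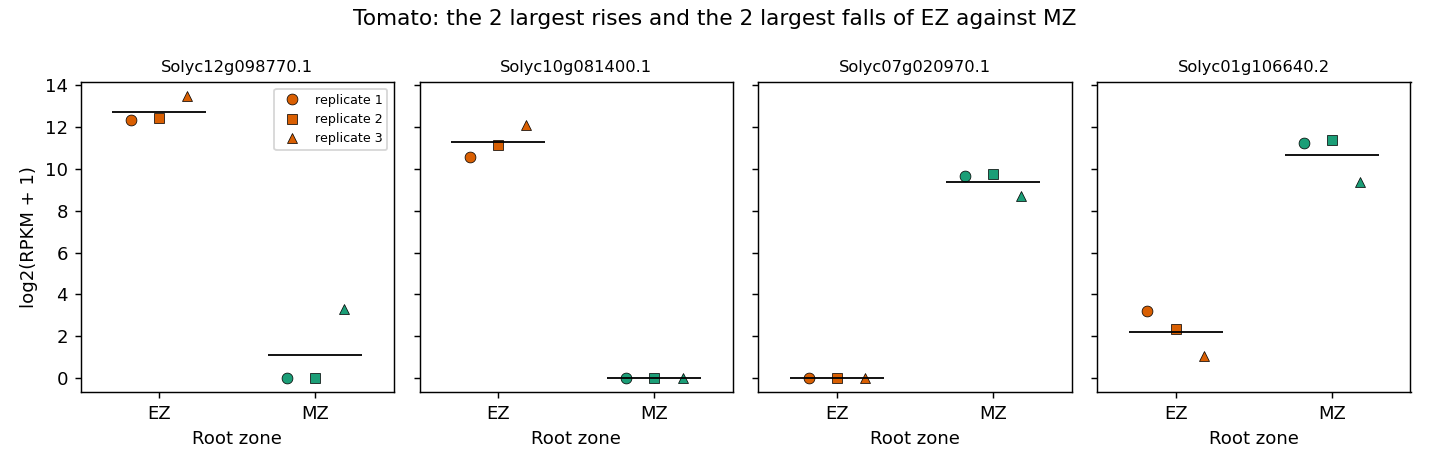
Level of the 4 genes in each library as log2(RPKM + 1), with EZ left of MZ in each panel, one symbol per replicate number and a line at the mean of 3. The zones do not overlap in any panel, and Solyc10g081400.1 in the MZ and Solyc07g020970.1 in the EZ sit at 0 in all 3 libraries.

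Rises were more often large than falls. Leaving aside genes listed at 0 throughout the lower zone, 244 genes rose by 16 to 64-fold and 82 by more, whereas 45 fell by 16 to 64-fold and 7 by more, on the log2(RPKM + 1) scale. Changes of 2 to 4-fold made up 57.9% of the genes that rose (2289) and 77.7% of those that fell (3499). Those of 4 to 16-fold numbered 1203 higher and 893 lower. The 82 genes that rose by over 64-fold had a median of 271 RPKM in the EZ and 0.78 RPKM in the MZ. The 7 genes that fell by over 64-fold had a median of 1.41 RPKM in the EZ and 331 RPKM in the MZ. The added 1 RPKM understates changes of low genes, so these classes depend on level as well as on the ratio.

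**Figure D3:**
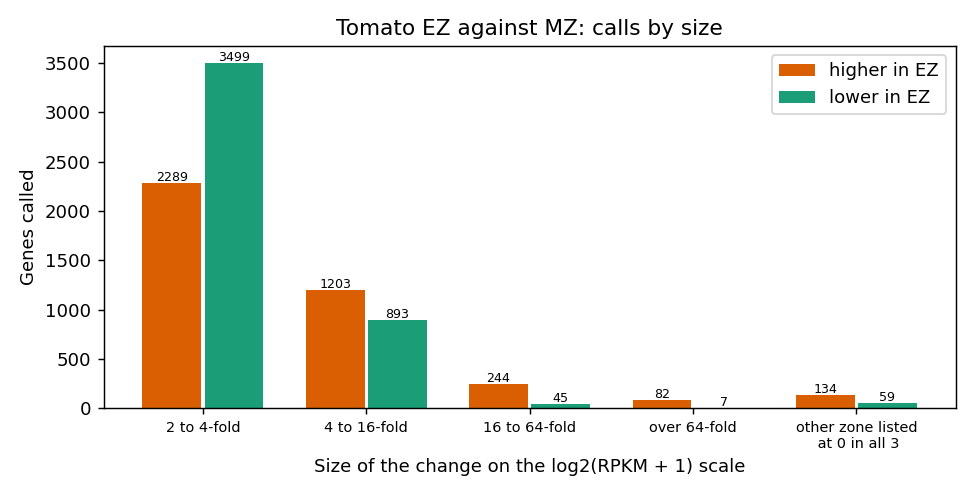
Number of genes called higher (orange, left) and lower (green, right) in the EZ by size of change, with genes listed at 0 in all 3 libraries of the lower zone shown apart. The higher bars exceed the lower bars in every class from 4-fold up, and the lower bar exceeds the higher one at 2 to 4-fold (3499 against 2289).

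Few of the called genes were listed at 0 throughout one zone. Of the genes that rose, 134 were listed at 0 in all 3 MZ libraries, and of these 21 reached a mean of 10 RPKM and 2 a mean of 100 RPKM in the EZ. Their median level was 2.16, 2.22 and 5.24 RPKM in EZ replicates 1, 2 and 3, and 12.5, 10.8 and 11.5 RPKM in the 3 DZ libraries. None of the 134 was listed at 0 throughout the DZ, and 126 had a DZ mean of at least 1 RPKM. With the MZ at 0, these genes passed the filter on their EZ and DZ values alone. Any with an EZ library under 1 RPKM passed only with the help of the DZ, so these DZ counts follow in part from the filter. Of the genes that fell, 59 were listed at 0 in all 3 EZ libraries, with 15 at a mean of at least 10 RPKM and 3 at a mean of at least 100 RPKM in the MZ. Among these 59, 23 were also listed at 0 in all DZ libraries and 18 had a DZ mean of at least 1 RPKM. The filter acted on the 59 through their MZ and DZ values, so nothing is read from the DZ counts of the 134 against those of the 59.

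The abundant end of the transcriptome was partly exchanged. The 3952 genes that rose held 20.8%, 31.3% and 38.9% of the summed RPKM of EZ replicates 1, 2 and 3, and 5.15% to 6.02% of that of the MZ libraries. The 4503 genes that fell held 31.8%, 23.8% and 17.5% in the EZ replicates and 54.4% to 58.3% in the MZ libraries. These shares follow from how the genes were chosen, and their spread shows how far the EZ libraries differ. Of the 100 most abundant rows of the EZ 46 were also among the 100 most abundant of the MZ. The EZ list held 37 genes that rose and 27 that fell, and 79 genes of the MZ list fell. Each list was picked by the level in 1 of the 2 zones compared, so these counts follow in part from the choice and nothing is read from them against the rates over all genes. The lowest mean on the lists was 1245 RPKM in the EZ and 1928 RPKM in the MZ. The most abundant row over all libraries alone was at 48034, 34611 and 23687 RPKM in EZ replicates 1, 2 and 3, against 90765, 77772 and 62163 RPKM in MZ replicates 1, 2 and 3. It fell by 1.16 ± 0.33 on the log2 scale (limma adjusted p = 0.0112). It took up to 6.12% of the summed RPKM of a library.

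With the tested genes in 4 equal groups by their mean over the 9 libraries, 9.97% rose in the lowest group (0.348 to 4.70 RPKM), 16.2% and 22.8% in the next ones, and 30.4% in the highest (33.5 RPKM and above). The falls were spread more evenly, at 24.5%, 24.9%, 19.7% and 21.5% from the lowest group to the highest. The median size of the log2 change in either direction was 0.75 in the lowest group and 1.07 in the highest, while the median SE was 0.21 and 0.20. The grouping mean includes the EZ and DZ libraries, so a gene that rose is moved to a higher group by its own rise and one that fell to a lower group, and the added 1 RPKM shrinks changes in the lowest group. The shares are a description, and whether abundance itself goes with rising was not tested.

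Among the most abundant genes the sizes of the changes differed between the directions, in part through how these genes were picked. Of the 423 tested genes with a mean of at least 500 RPKM over the 9 libraries, a bound set after the values were seen, 101 rose (23.9%) and 196 fell (46.3%), beside 19.9% and 22.6% of all tested genes. This mean too includes the libraries compared, and in it the EZ and DZ libraries together outnumber the MZ libraries. A gene high in the MZ alone thus needs a higher level there to reach the bound than one high in both EZ and DZ needs. The choice therefore works against large falls, and how much of the contrast below comes from it was not tested. The 196 that fell had a median log2 change of -1.28, with the middle 80% of them between -1.55 and -1.10. The 2-fold bound of the calls leaves out smaller falls, so it helps to set the narrowness of this range. The 101 that rose were spread widely, with a median of 3.07 and the middle 80% between 1.26 and 7.82. In the plot of change against level a narrow green band of falling genes lies at the right. The plot does not mark the 196, and it places genes by their EZ and MZ levels alone. That band lies close to the 2-fold bound, and with each library scaled to the same summed RPKM, 106 of the 423 rose and 156 fell.

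The DZ libraries, which had no part in calling a gene other than through the shared estimate of spread and the filter, give the later level of the same genes. The genes that rose had medians of 16.9, 22.3 and 29.0 RPKM in EZ replicates 1, 2 and 3 and of 3.52 to 4.29 RPKM in the MZ libraries. Their medians in the DZ libraries were 30.4 to 31.1 RPKM. The genes that fell had medians of 7.43, 4.82 and 4.19 RPKM in EZ replicates 1, 2 and 3 and of 18.9 to 21.2 RPKM in the MZ libraries. Their DZ medians were 5.03 to 5.93 RPKM. The DZ medians of both groups thus lay on the EZ side of the MZ medians. From EZ to DZ, 17.8% of tested genes rose (3537) and 11.6% fell (2298) in the same fit, a comparison that shares the EZ libraries.

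The EZ libraries differed from each other in the same way in both groups. EZ replicate 3 was the highest of the 3 EZ libraries in 73% of the genes that rose, and EZ replicate 1 in 3.06%. In the 4503 genes that fell, EZ replicate 1 was the highest in 85.9% and EZ replicate 3 the lowest in 66.9%, with the 59 genes listed at 0 in all EZ libraries counted as neither. EZ replicate 1 was therefore the library nearest to the MZ and EZ replicate 3 the farthest from it, as in their places on the line from MZ to DZ. An order by replicate number was not confined to the EZ. Summed RPKM fell from replicate 1 to 3 in the EZ (1.33749e+06, 1.20999e+06 and 1.12032e+06). It also fell in the MZ (1.48328e+06, 1.34382e+06 and 1.23509e+06) and the DZ (1.21974e+06, 1.15916e+06 and 1.0959e+06). MZ places on the line did not follow that order (0.0167, -0.0216 and 0.00485). Whether the EZ order goes with zone position or with replicate number was not tested. The part of the EZ spread in single results was not tested. Without EZ replicate 1, 4328 genes rose and 4969 fell, and without EZ replicate 3, 3516 rose and 3908 fell.

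**Figure D4:**
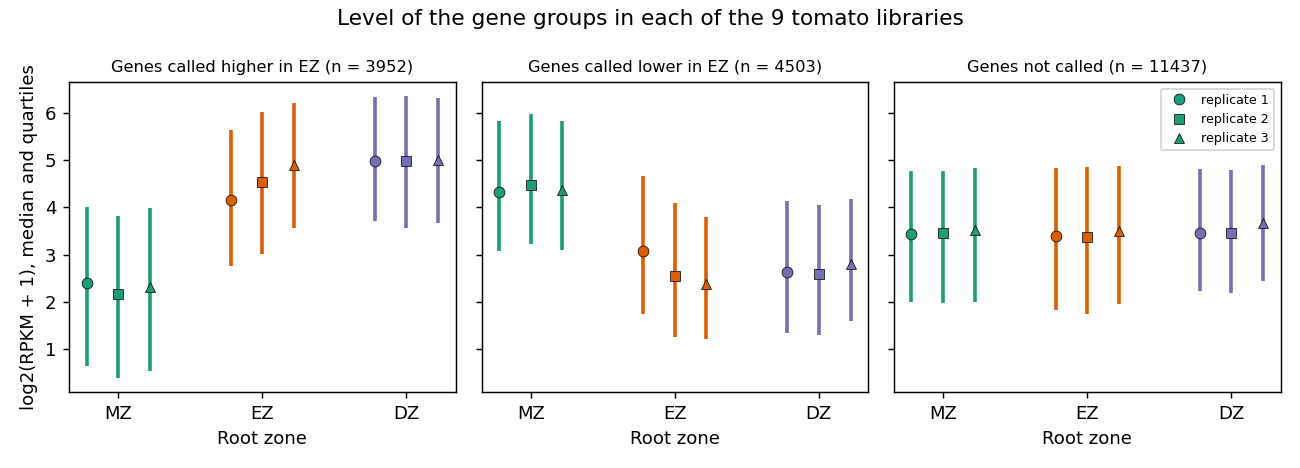
Median (symbol) and quartiles (line) of log2(RPKM + 1) in each of the 9 libraries, in zone order, for the genes called higher in the EZ, those called lower and those not called. Among the EZ libraries replicate 1 (circle) lies nearest to the MZ and replicate 3 (triangle) farthest in both called groups. Their medians are 16.9 and 29.0 RPKM for the genes that rose and 7.43 and 4.19 RPKM for those that fell. The MZ libraries of a panel lie close to each other, and so do its DZ libraries.

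Genes of both directions came from every chromosome. Tomato locus IDs carry the number of the chromosome and are numbered along it. On the 12 chromosomes 18% to 21.8% of tested genes rose, highest on chromosome 12, and 20.5% to 24.2% fell, highest on chromosome 7. Each of these lay within 3 points of the rates over all genes, 19.9% and 22.6%. Of 887 rows numbered 00, which stand on no chromosome, 137 were tested, with 31 higher and 25 lower.

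**Figure D5:**
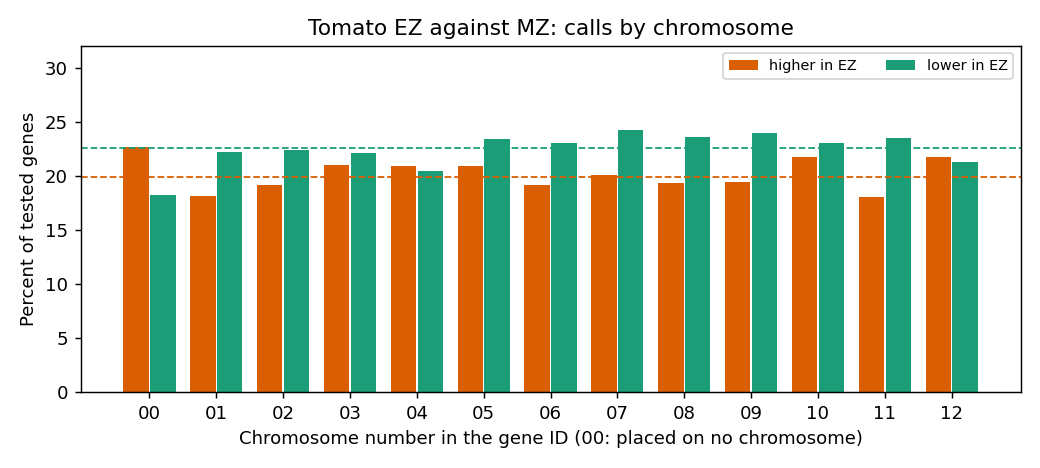
Percent of tested genes called higher (orange) and lower (green) in the EZ by the chromosome number in the gene ID, with dashed lines at the rates over all genes, 19.9% and 22.6%. The chromosomes differ little from each other and from the dashed lines; the 00 bars rest on 137 genes.

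Neighbouring loci changed the same way at shares above the rates over all genes, 19.9% and 22.6%, which is given as a description with no test. Some rows of the deposited table repeat each other. Of the tested rows, 531 lay in 246 sets with the same value in all 9 libraries, each set within 1 chromosome and the largest of 30 rows, and 87 of them were called higher and 87 lower. None of the 4 named genes is among them. Pairs of an ID and the one directly after it were counted only where both were tested. With 1 row kept of each set, the ID after a gene that rose also rose in 28.1% of 2779 cases and fell in 18.9%. After a gene that fell, the next one also fell in 28% of 3168 cases and rose in 17.6%. After a gene that was not called, 18.5% of 7968 neighbours rose and 21.8% fell. With all rows kept, 29.2% of 2818 neighbours rose after a rise and 29% of 3208 fell after a fall. Rows whose values are close but not identical remain in both counts. Runs of at least 5 consecutive IDs that all rose numbered 18, with 94 genes, whether or not the repeats were kept. Runs that all fell numbered 8 with 42 genes without the repeats, and 10 with 54 genes with all rows kept.

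The gene with the largest rise stood in 1 of the longest runs. Solyc12g098770.1 was in a run of 7 consecutive IDs on chromosome 12 that all rose, with log2 changes of 1.32 to 11.64 and median levels of 529 RPKM in the EZ and 3.01 RPKM in the MZ. Of the 10 nearest IDs around it 8 were tested and all 8 rose. Another run of 7 that rose, on chromosome 4, had log2 changes of 1.35 to 4.12, with medians of 41 RPKM in the EZ and 3.57 RPKM in the MZ. The longest run that fell, 7 IDs on chromosome 9, had log2 changes of -2.24 to -1.04, with medians of 4.02 RPKM in the EZ and 22 RPKM in the MZ. The other 3 genes named above did not stand in such runs. Of the 10 IDs nearest to Solyc10g081400.1 all were tested, with 1 higher and 2 lower, and of the 10 nearest to Solyc07g020970.1 only 1 was tested. Of the 10 nearest to Solyc01g106640.2, 8 were tested, with 2 higher and 1 lower.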

How the data were processed

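RNA was sequenced from 3 libraries each of the EZ, MZ and DZ of tomato roots. The tools TopHat2 and FastQC are named, with no versions, per the submitters' processing notes. Per the labels, reads were mapped with the Ensembl release 19 annotation of SL2.4. The authors deposited RPKM values, while the sources used here do not give the counting tool, gene lengths, filters or strand. Each column stacks 6 species, and its Solyc rows were taken as the tomato library of that zone and number. A second table, of joint zones, was not used here. Values were tested as log2(RPKM + 1) with limma 3.58.1 in R 4.3.3 (lmFit on 9 libraries, eBayes with trend and robust estimation, two-sided) after a filter of at least 1 RPKM in at least 3 libraries. Same-numbered DZ and EZ libraries deviated together (correlations of 0.182 to 0.314), so DZ against EZ was also fitted with a replicate block. EZ and MZ libraries of the same number correlated only weakly (0.0163 to 0.0628). They were left unpaired in the fit reported, with the block fitted as an alternative. The fit was also run on simulated data with independent noise and far fewer changed genes than were called here. That run does not give the error rates of the calls in these data. Tables and figures used Python 3.11.15, pandas 2.3.3, NumPy 2.4.6 and matplotlib 3.10.9. Relative depth is the most frequent ratio between low values of 2 libraries. With no annotation of the IDs, gene lists planned by annotation text could not be applied, and the named genes are the 2 largest called rises and the 2 largest called falls without overlap between zones, at a pseudocount of 1. The comparison and these rules were chosen with earlier results of these data known.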

Additional observations from a re-analysis of the deposited data

How the results depend on the processing

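Over 20 alternatives, the counts moved by over 1.5 times in 2. With a pseudocount of 5 RPKM, 2587 genes rose and 2679 fell, and with no fold minimum 6525 rose and 7261 fell. Leaving out 1 EZ or MZ library at a time gave 3516 to 4328 higher and 3908 to 4969 lower. More genes fell than rose in all but 1 alternative. With each library scaled to the same summed RPKM, chosen after seeing the data, 4450 rose and 3844 fell, and the median log2 change of all genes shifted by 0.11. Changes in the text are on the deposited scale. Without the 3 libraries numbered 3, also chosen after seeing the data, 3561 rose and 3587 fell. Same-numbered EZ and MZ libraries deviated from their zone means with weak correlations of 0.0163, 0.0628 and 0.0345, and EZ replicate 1 correlated more with MZ replicate 2 (0.0247). The fit reported left them unpaired, and whether the numbers mark a shared preparation is not known from the labels. With the replicate number as a block 3986 rose and 4528 fell. Same-numbered DZ libraries correlated at 0.116 to 0.245 with MZ and 0.182 to 0.314 with EZ libraries, and with the block 3575 genes rose and 2307 fell from EZ to DZ. With 1 row kept of each set of identical rows, chosen after seeing the data, 3908 rose and 4459 fell. The 4 named genes kept their calls wherever they were tested, with adjusted p (limma) of at most 0.000311; the log2 change of Solyc12g098770.1 ranged from 9.93 to 13.90 and that of Solyc01g106640.2 from -9.11 to -7.50. Solyc07g020970.1 was tested in 16 of the 20 alternatives, since without an MZ library it does not reach the filter. Depth in reads is unknown, which limits statements on values near 0.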
